A study of Mus musculus with 10 samples.

Results

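The cAMP/CREB response genes described here are 10 of the 23197 genes counted: *Nr4a1*, *Nr4a2*, *Nr4a3*, *Crem*, *Pde4b*, *Pde4d*, *Pde10a*, *Per1*, *Sik1* and *Prkar1a*. They were chosen by name as genes that respond to Forskolin, and all 10 were found in the table. The series followed mouse embryonic fibroblasts (MEFs), which the study isolated from ICR mouse embryos, on their way to cells resembling extraembryonic endoderm (XEN) under the cocktail C6FAE. Single cells were picked by hand at days 0, 1, 2, 3, 4, 5, 6, 8, 12 and 20 (d0 to d20), and further cells came from colonies at day 8 (d8c) and day 12 (d12c). Cells of day 6 carry the name d6p, whose p is not explained in the sources used here. The cocktail held CHIR99021 (20 μM), the TGF-β receptor inhibitor RepSox (10 μM), Forskolin (50 μM), AM580 (0.05 μM) and EPZ004777 (5 μM). The study's methods list valproic acid beside these compounds (VC6FAE), whereas its results name C6FAE for the single cells. Cells of d0 had seen serum medium without any of these compounds, whereas the reprogramming medium also brought serum replacement and basic fibroblast growth factor. No group received the cocktail without Forskolin, so a part of Forskolin cannot be told apart from the rest of the medium. The medium was renewed every 4 days, and the time between the last change and picking is not given in the sources used here.

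Forskolin is a plant diterpene that activates adenylyl cyclases directly, so that cAMP builds up in the cell. cAMP binds the regulatory subunits of protein kinase A (PKA) and frees its catalytic subunits, which phosphorylate the transcription factor CREB at the cAMP response elements (CREs) of its target genes. Many of these targets close a loop: phosphodiesterases destroy cAMP, the *Crem* locus also makes the repressor ICER from an internal promoter, and SIK kinases hold back the CREB coactivators. In fibroblasts, a rise in cAMP is known to induce such genes within hours and for a short time.

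The upstream bases of the NR4A genes are shown because each held 4 copies of the core of a CRE, and those of *Prkar1a* because they held a full one. RefSeq promoter sequences (GRCm38.p6) matched 8 of the 10 genes, and *Crem* and *Sik1* had no entry. Capitals mark TGACG or, on the other strand, CGTCA, and in *Prkar1a* the full CRE TGACGTCA. Both strands were searched and matches could overlap. The full CRE reads the same on both strands and holds the short motif on each. The 250 bases before the start are from chr15:101266596-101266845 (+ strand) for *Nr4a1*, chr2:57124004-57124253 (- strand) for *Nr4a2* and chr4:48045055-48045304 (+ strand) for *Nr4a3*. For *Prkar1a*, 30 bases around the CRE are shown, from chr11:109650889-109650918 (+ strand).
Nr4a1: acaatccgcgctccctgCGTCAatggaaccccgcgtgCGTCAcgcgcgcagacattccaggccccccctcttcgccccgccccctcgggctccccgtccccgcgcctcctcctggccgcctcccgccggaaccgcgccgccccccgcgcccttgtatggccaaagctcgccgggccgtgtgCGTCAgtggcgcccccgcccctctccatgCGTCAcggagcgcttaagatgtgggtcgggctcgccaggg
Nr4a2: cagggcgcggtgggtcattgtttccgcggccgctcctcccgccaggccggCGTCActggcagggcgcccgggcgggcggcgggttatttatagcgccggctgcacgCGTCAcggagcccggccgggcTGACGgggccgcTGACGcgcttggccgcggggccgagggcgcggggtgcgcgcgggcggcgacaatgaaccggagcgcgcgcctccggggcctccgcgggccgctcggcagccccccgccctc
Nr4a3: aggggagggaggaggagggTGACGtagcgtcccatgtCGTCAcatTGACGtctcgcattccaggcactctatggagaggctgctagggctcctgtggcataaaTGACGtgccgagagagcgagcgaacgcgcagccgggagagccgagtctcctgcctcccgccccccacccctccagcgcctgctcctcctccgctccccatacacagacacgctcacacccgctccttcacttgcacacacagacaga
Prkar1a: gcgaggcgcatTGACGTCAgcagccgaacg

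Each NR4A promoter held 4 matches to the short motif. In *Nr4a1* their first bases lay 233, 213, 69 and 40 bases before the start, in *Nr4a2* 200, 144, 123 and 111, and in *Nr4a3* 231, 213, 205 and 147. Of 32851 promoters of this length, 5836 (17.8%) held at least 1 match and 45 (0.137%) held at least 4. The full CRE stood in 1.55% of all promoters and in 1 of the 18 promoters listed for the 8 genes, 49 bases before 1 start of *Prkar1a*. Further short motifs stood in *Pde4b* (34 bases before 1 of its 4 starts) and in *Per1* (246 and 132 bases before its starts). Others stood at 3 starts of *Prkar1a* (151, 100 and 187 bases before them). The matches at 100 and 187 bases are the same site, seen from starts whose windows overlap. None stood in the windows of *Pde4d* and *Pde10a*. A match is a description of letters and does not show that CREB binds there.

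Values are given as CPM, the UMIs (unique molecular identifiers, tags that mark single RNA molecules) of a gene scaled to 1e+06 UMIs of its cell without the ERCC spike-in RNAs. A cell entered when 4000 or more genes were detected in it, as in 670 of 808 cells, which held 17633 to 6004864 UMIs each with group medians of 195480 (d20) to 1055206 (d2). This left 38 of 72 d20 cells and 51 of 96 d12c cells. The 10 samples of the series are batches, while a cell's name shows its time point and a running number but no batch, so all cells count as 1 sample and no p-value was computed. Intervals are exact at 95% (Poisson for UMIs, Clopper-Pearson for shares) and cover counting error only. Markers of a type were summed in each cell, and the median of this sum over cells is given. Fibroblast markers (10 genes, among them *Col1a1* and *Thy1*) had 3348 CPM at d0, 10464 CPM at d12 and 46.0 CPM at d20. XEN markers (10 genes, among them *Sox17* and *Gata4*) had 49.1, 46.2 and 1491 CPM, and *Foxa2*, *Sall4* and *Amn* were at 0 at d0. The d12c cells split by running number: the 21 kept cells numbered 1 to 24 had a fibroblast median of 6507 CPM and an XEN median of 196 CPM, and the 30 numbered 49 to 96 had 23.2 and 1104 CPM. Of the 48 deposited d12c cells numbered up to 48, 27 failed the filter, and none numbered 25 to 48 was kept. Of the 48 numbered 49 to 96, 18 failed it. Low values of a gene need not come from the cell itself. *Sst*, the somatostatin gene, reached 117724 CPM in 1 d8 cell, and the next highest was at 1721 CPM. It had UMIs in all 62 d8 cells, the lowest at 40.6 CPM. Its UMIs were found in 0 of 40 d1 cells, and the d0 cells held 16 of them in all. The median of the other d8 cells was 3.86% of the mean over d8 cells. The 20 d8 cells numbered above 48 did not include the highest cell, and all 20 had UMIs of *Sst*. Their highest cell was at 1390 CPM, and the median of the others was 64.9 CPM, or 44.8% of their mean. The low values were thus not tied to the numbers that held the highest cell. Whether RNA passed between cells was not tested, but a bare UMI is therefore not taken to show expression. Cells at or above 20 CPM are counted below, a level that all 62 d8 cells pass for *Sst*. In the shallowest kept cells 1 UMI alone exceeds 20 CPM, so this level does not exclude bare UMIs there. The shallowest cells held 17633 UMIs at d8, 23081 at d4, 27845 at d20 and 29666 at d6. How strict the level is thus varies with the depth of a cell. Counts and shares of cells with a UMI, where given, describe detection only.

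*Crem* had the largest difference between d12 and d0 among the 10 genes. It encodes CREM, a CREB relative whose locus yields both activators and the cAMP-induced repressor ICER, which the counts per gene do not separate. In NCBIM37 (mm9), the build of all gene positions given here, it spans 3266046 to 3337746 of chromosome 18 (- strand). The lincRNA gene *Gm6225* overlaps it on the other strand, and strand use in counting is not stated. At d0 *Crem* ranged from 0 to 267 CPM with a median of 4.47 CPM, and 21 of 72 cells (29.2%, 19.05% to 41.1%) stood at 20 CPM or more. At d1 it ranged from 0 to 352 CPM with a median of 55.1 CPM, and 27 of 40 cells (67.5%, 50.9% to 81.4%) passed this level. The increase was thus present in the first day's cells, and the ranges of both groups overlapped.

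From d2 to d8c the mean of *Crem* stayed between 45.9 CPM (d3) and 101 CPM (d4), above the 21.4 CPM of d0 in every group. At d6, 35 of 86 cells (40.7%, 30.2% to 51.8%) passed 20 CPM, with an interval that overlaps that of d0. The d6 median was 4.81 CPM in cells numbered 1 to 48 and 17.1 CPM above 48. At d12 it rose to a mean of 241 CPM (16351 UMIs, 16101 to 16604), with a lowest cell of 5.89, a median of 139 and a highest of 1111 CPM. At that time 61 of 67 cells (91.0%, 81.5% to 96.6%) passed 20 CPM, and 41 were over 100 CPM against 3 of 72 at d0. At d20 the mean was 52.6 CPM and the median 36.5 CPM, with 12 of 38 cells at 0. In the order of the means, d12 stood first, followed by d4 and d5, and d0 last. Only the step from d12 to d4 exceeded the smaller SD over cells of its neighbours. This SD is the spread of single cells and not the error of a mean, so the order is given as a description.

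**Figure D1:**
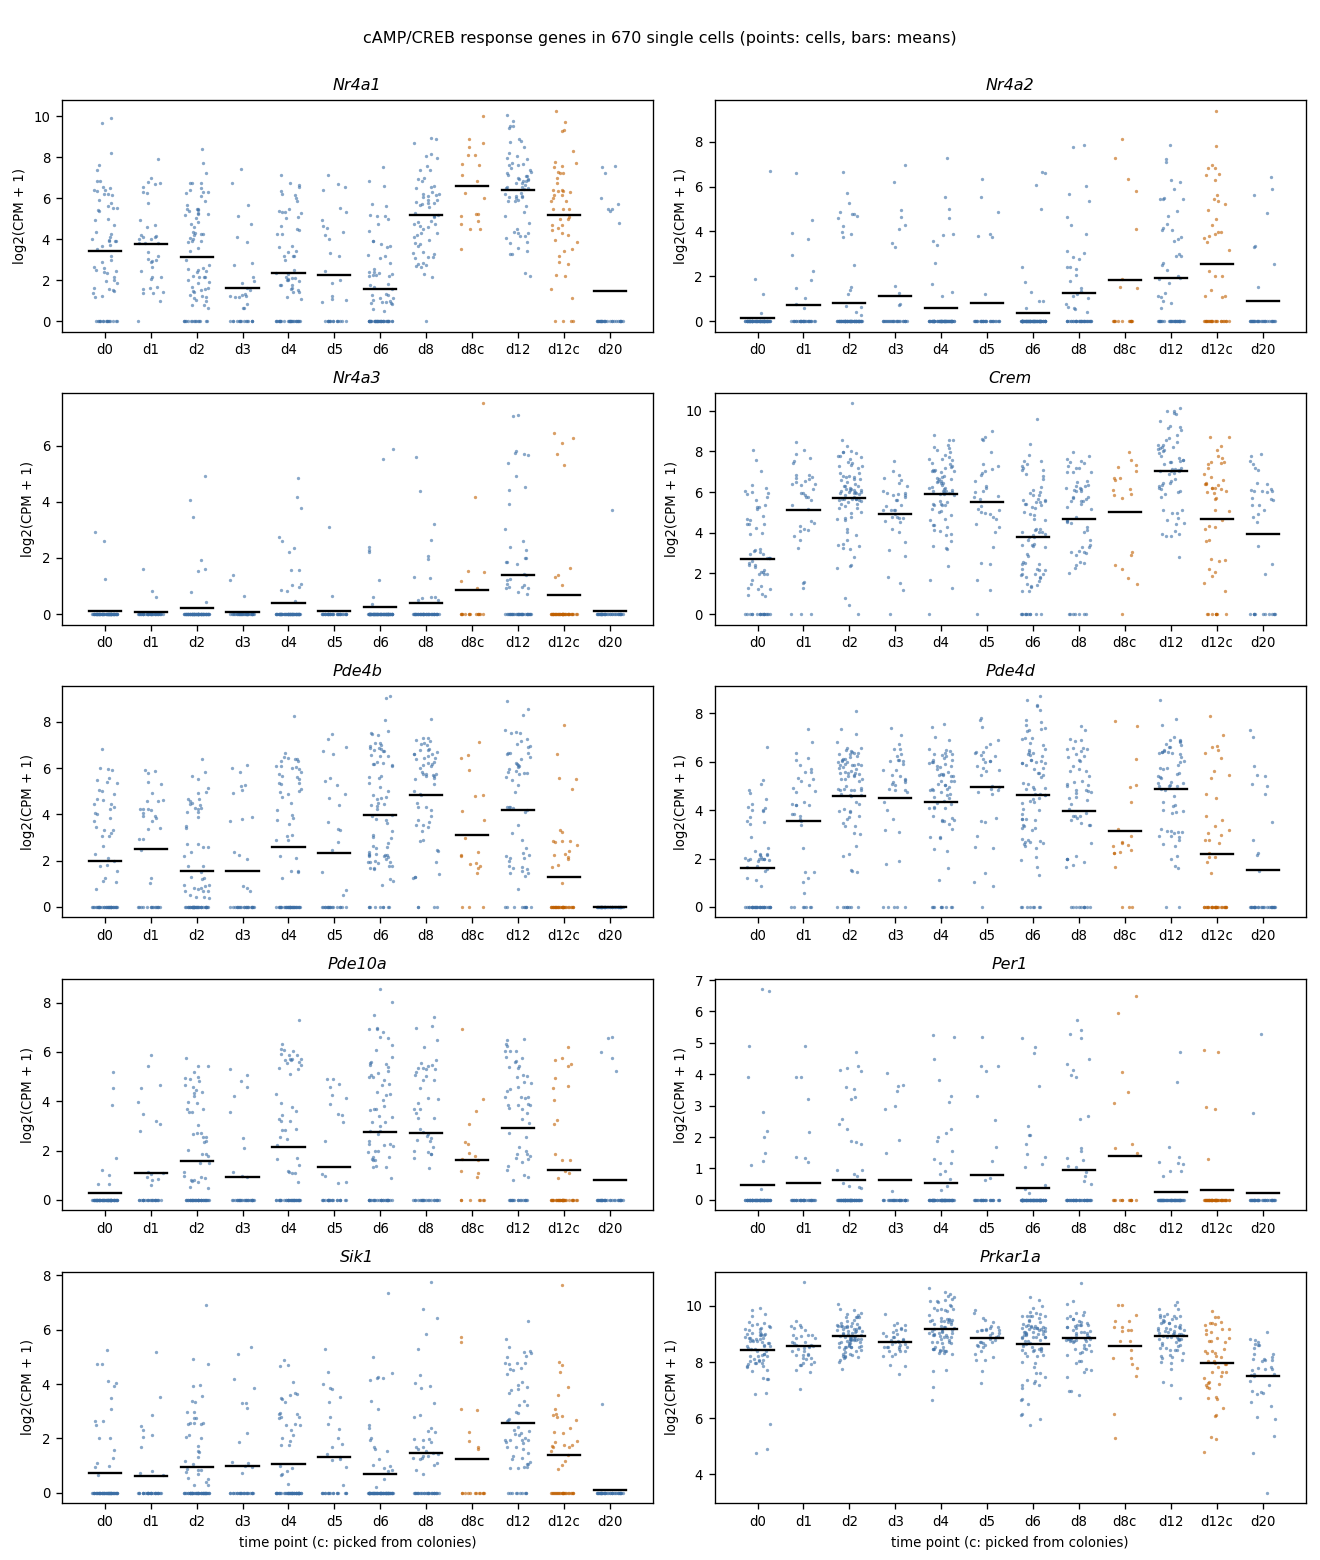
Expression of the 10 cAMP/CREB response genes by time point. Each point is 1 of 670 cells (y axis, log2(CPM + 1), with a scale of its own for each gene), bars are means over cells, and orange marks cells from colonies. The mean of *Crem* is above that of d0 in all later groups, by least at d6, and highest at d12. *Nr4a1* is low from d3 to d6 and high from d8 to d12c, and *Pde4b* is at 0 in all 38 d20 cells.

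The phosphodiesterases *Pde4b*, *Pde4d* and *Pde10a* rose on different days. PDE4B and PDE4D hydrolyse cAMP alone, whereas PDE10A hydrolyses both cAMP and cGMP. *Pde4d* lies on chromosome 13 from 109240142 to 110743669 (+ strand), where the annotation holds a second *Pde4d* entry further downstream. Its median was 1.88 CPM at d0 (0 to 98.1 CPM), 17.5 CPM at d1 (0 to 163 CPM) and 37.9 CPM at d2 (0 to 272 CPM). Cells at 20 CPM or more numbered 6 of 72 at d0, 16 of 40 at d1 and 55 of 83 at d2. Its mean then lay between 36.7 and 63.4 CPM from d2 through d8. At d12 the mean was 53.3 CPM (3295 UMIs, 3183 to 3410), and at d20 it was 14.2 CPM, with 25 of 38 cells at 0.

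*Pde4b*, on chromosome 4 from 101760148 to 102279864 (+ strand), followed later. Its mean was 11.4 CPM at d0, 13.2 CPM at d1, 7.62 CPM at d2 and 9.95 CPM at d3. It then rose to 24.4 CPM at d4, 53.4 CPM at d6, 57.3 CPM at d8 and 62.5 CPM at d12. The share of cells at 20 CPM or more went from 20.8% at d0 (12.2% to 32.0%) to 62.9% at d8 (49.7% to 74.8%) and 49.3% at d12 (36.8% to 61.8%). At d12 the cells spread from 0 through a median of 19.04 CPM to 480 CPM, so that many cells stayed as low as at d0. At d20 no UMI of *Pde4b* was found in 38 cells, which by a floor of 3 cells allows up to 7.89% of cells with a UMI at this depth and sets no limit on cells that express the gene. Against a floor of 3 UMIs over all d20 cells (0.341 CPM), the d12 level of 67.2 CPM from summed UMIs was at least 197-fold higher. The d4 value differed by running number, since cells 1 to 48 had a mean of 37.5 CPM and those above 48 had 10.1 CPM, with median depths of 778217 and 322066 UMIs.

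*Pde10a*, on chromosome 17 from 8718237 to 9179513 (+ strand), was nearly silent in fibroblasts. Its mean was 1.05 CPM at d0, with 2 of 72 cells at 20 CPM or more. The highest mean was 27.4 CPM at d6, with 25 of 86 cells past this level, and at d12 it was 18.95 CPM, with 22 of 67 cells. At d20 the mean was 9.03 CPM, carried by 5 of 38 cells while the other 33 were at 0. Across the 12 groups the means of *Pde4b* and *Pde10a* on the log2 scale ran alike (Pearson r = 0.82), more than those of *Pde4b* and *Pde4d* (0.54). Over the 67 d12 cells the levels of *Pde4b* and *Pde4d* had a Spearman rho of 0.50, *Crem* and *Pde4d* 0.47 and *Crem* and *Pde4b* 0.43. Cells share depth and library, and *Crem* itself had a rho of 0.38 with the UMIs of the cell, so these coefficients are given as a description.

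The NR4A genes encode orphan nuclear receptors and are classic immediate early targets of CREB. *Nr4a1*, on chromosome 15 from 101097277 to 101105223 (+ strand), was already present in fibroblasts. At d0 it ranged from 0 to 962 CPM with a median of 9.29 CPM and a mean of 55.0 CPM, and 25 of 72 cells were at 20 CPM or more. At d1 the median was 12.999 CPM and the mean 31.8 CPM, and 12 of 40 cells (30%, 16.6% to 46.5%) passed this level, with overlapping ranges. The mean was thus lower and the median higher than at d0, and without the single highest d0 cell the mean of that group was 42.2 CPM. The means then went down to between 9.63 CPM (d6) and 18.5 CPM (d5) from d3 to d6.

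From d8 to d12c the means of *Nr4a1* exceeded that of d0. Its median was 34.3 CPM at d8 (0 to 500 CPM), 95.7 CPM at d8c (10.6 to 1032 CPM) and 93.9 CPM at d12 (3.65 to 1074.5 CPM). Cells over 100 CPM numbered 7 of 72 at d0, 2 of 86 at d6, 12 of 62 at d8, 10 of 20 at d8c and 32 of 67 at d12. At d20 29 of 38 cells were at 0, and 9 cells (23.7%, 11.4% to 40.2%) were at 20 CPM or more, up to 192 CPM. The d20 cells thus held a minority with *Nr4a1* levels in the range of d12 cells. Beside this course, 7 immediate early and heat shock genes (among them *Fos*, *Jun*, *Egr1* and *Hspa1a*) were summed in each cell. The medians of this sum over cells were 419 CPM at d0, 826 at d1, 182 at d6, 604 at d8, 2451 at d8c, 886 at d12 and 532 at d20. Such genes also respond to the handling of cells, and their part in the NR4A values was not tested. In d12 cells *Nr4a1* and *Fos* had a Spearman rho of 0.25 and in d8 cells of 0.02.

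*Nr4a2*, on chromosome 2 from 56959241 to 56976414 (- strand), and *Nr4a3*, on chromosome 4 from 48058025 to 48099319 (+ strand), were rare at the start. *Nr4a2* had a mean of 1.49 CPM at d0, set by 1 cell at 103 CPM, since the mean of the others was 0.0599 CPM. At d12 its mean was 16.5 CPM, with 12 of 67 cells at 20 CPM or more. In the late d12c cells it reached 57.1 CPM, with 12 of 30 cells (40.0%, 22.7% to 59.4%) past this level and a highest cell of 670 CPM. Without that cell the mean was 35.9 CPM. *Nr4a3* had 7 UMIs in all at d0 (2.81 to 15) and none of its d0, d1, d3, d5 or d20 cells reached 20 CPM. At d12 it had 786 UMIs (732 to 843), and 10 of 67 cells reached this level. The d8c mean of *Nr4a3*, 10.2 CPM, fell to 1.21 CPM without its highest cell.

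*Sik1* encodes a salt-inducible kinase that phosphorylates the CRTC coactivators of CREB and so limits the response. It lies on chromosome 17 from 31981193 to 31992737 (- strand). Its mean lay between 1.78 CPM (d1) and 4.15 CPM (d5) up to d6, and 3 of 72 d0 cells were at 20 CPM or more. At d12 the mean was 10.9 CPM with a highest cell of 79.8 CPM, and 15 of 67 cells passed this level. The d8 mean of 10.1 CPM differed by running number, since cells 1 to 48 had 2.18 CPM and those above 48 had 26.9 CPM. At d20 a single UMI was found in 38 cells.

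*Per1*, a gene of the circadian clock that cAMP can induce through CREs, did not follow these courses. It lies on chromosome 11 from 68908719 to 68923462 (+ strand). Its group means ran from 0.710 CPM (d12) to 9.51 CPM (d8c), and at most 5 cells of a group reached 20 CPM. Its mean log2(CPM + 1) was under 1 in each group of the comparisons below.

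*Prkar1a*, on chromosome 11 from 109510719 to 109530970 (+ strand), encodes the type I-alpha regulatory subunit that holds PKA inactive until cAMP binds. A UMI was found in each of the 670 cells. Its mean was 402 CPM at d0 (25.9 to 981 CPM, median 383) and 529 CPM at d12 (104 to 1129 CPM, median 508). The highest mean was at d4 (649 CPM), with 517 CPM in cells numbered 1 to 48 and 793 CPM above 48. At d20 the mean was 228 CPM (9.17 to 543 CPM, median 214), the lowest of the 12 groups.

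A cell at d0 had UMIs of a median of 4 of the 10 genes, a cell at d12 of 8 and a cell at d20 of 3. Groups differed in depth, so each cell was also reduced at random to 50000 UMIs, for which 647 cells were deep enough. The medians were then 2 genes at d0, 5.5 at d12 and 2 at d20. Thinned shares of cells with *Crem* were 32.4% at d0, 72.5% at d1, 95.5% at d12 and 55.6% at d20, against 75%, 92.5%, 100% and 68.4% with all UMIs. For *Pde4d* they were 14.1%, 52.5%, 63.6% and 19.4%, against 55.6%, 82.5%, 97.01% and 34.2%. Among these 4 days, d12 was highest and d1 next for both genes at equal depth, whereas d20 stood above d0 after thinning and below it with all UMIs. Over all groups the thinned share of *Pde4d* was highest at d2 (72.0%), and that of *Crem* at d12.

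**Figure D2:**
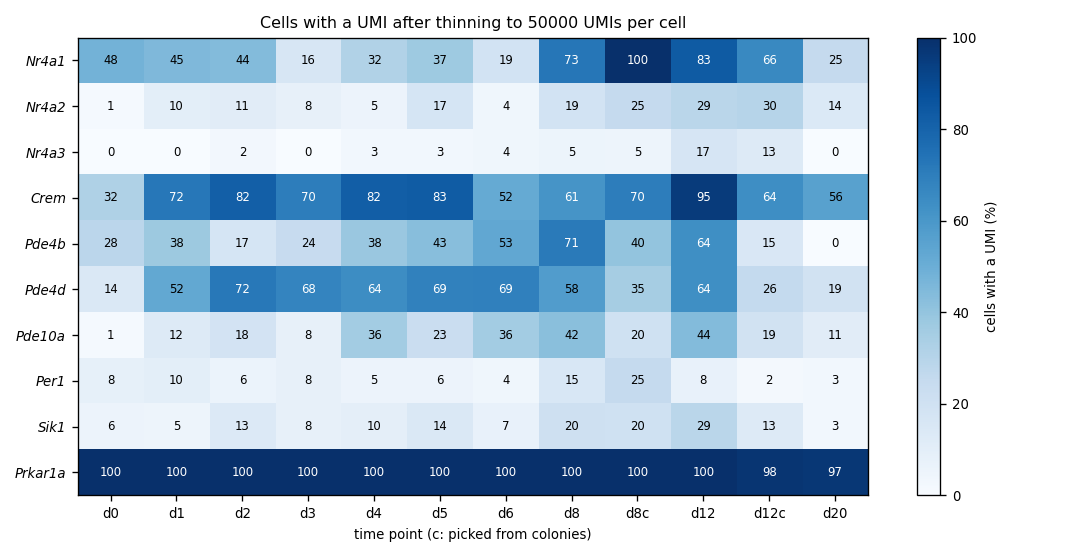
Percentage of cells with a UMI of each gene after every cell was thinned to 50000 UMIs (columns, time points; rows, genes; colour and printed numbers, percent of 647 cells by group). *Prkar1a* is found in nearly all cells, *Crem* rises from 32.4% at d0 to 72.5% at d1, and *Pde4b* has no UMI at d20.

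To compare groups, the mean log2(CPM + 1) of 1 group was subtracted from that of another, where that mean reached 1 in one or both of them. A gene is counted as higher or lower when this difference passes 1. The comparisons of d1, d8 and d12 share the d0 cells, and those of d20 and of late d12c cells share the d12 cells. Against d0, d1 cells had 2 genes higher and 0 lower of 6 with enough expression, namely *Crem* (2.41) and *Pde4d* (1.95). Among 9441 genes 19.3% were higher and 4.57% lower, and the median of all genes was 0.43, so that relative to it *Crem* rose by 1.98 and *Pde4d* by 1.52. *Pde10a* (0.83), which reached the level at d1 alone, *Pde4b* (0.55), *Nr4a1* (0.33) and *Prkar1a* (0.13) did not pass. The values of *Nr4a1* and *Prkar1a* lay below the median of all genes.

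At d8, 6 of 8 expressed members were higher and 0 lower, while 17.1% of 9557 genes were higher and 13.7% lower. *Nr4a2*, *Pde10a* and *Sik1* reached the level for comparison at d8 alone, and of the 5 that reached it in both groups 4 were higher. The 6 were *Pde4b* (2.87), *Pde10a* (2.44), *Pde4d* (2.38), *Crem* (1.93), *Nr4a1* (1.74) and *Nr4a2* (1.11). *Sik1* (0.76) and *Prkar1a* (0.42) did not pass. For *Nr4a1* the averaging mattered. Its mean CPM was 76.4 against 55.0, a ratio of 1.39, and the difference of the logs of mean CPM was 0.47. The value of *Nr4a2* dropped to 0.51 when values under 20 CPM were set to 0.

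At d12, 8 of 9 expressed members were higher than at d0 and 0 lower, with 19.8% of 9611 genes higher and 16.3% lower. *Crem* had the largest difference (4.30), followed by *Pde4d* (3.26), *Nr4a1* (2.97), *Pde10a* (2.65), *Pde4b* (2.24), *Sik1* (1.84), *Nr4a2* (1.79) and *Nr4a3* (1.29). *Prkar1a* differed by 0.49. With values under 20 CPM set to 0 before the logarithm, 5 members stayed past 1, beside 20.3% of all genes. *Nr4a2* then came to 0.98, *Sik1* to 0.92 and *Nr4a3* to 0.84. Of the 8, *Nr4a2*, *Nr4a3*, *Pde10a* and *Sik1* reached the level for comparison at d12 alone, so their entry depended on the difference itself, and the count of 8 is a description. Among the 5 members that reached it in both groups, 4 were higher. Both groups showed fibroblast markers, at a higher summed level at d12. The sum of macrophage markers (6 genes) had a median over cells of 0.610 CPM at d0 and of 19.98 CPM at d12, with a highest cell of 521 CPM and *Ptprc* at 0. Epithelial markers (5 genes) went from a median of 0.678 CPM to 71.1 CPM, with d12 cells from 35.2 to 8821 CPM and *Cdh1* at 0 at d0. Every d12 cell thus held UMIs of these markers, as every d8 cell did of *Sst*, whereas the lowest cell of d0 and of d8 was at 0. Whether the low values came from the cells themselves was not tested. Endothelial markers (5 genes) went from 0 to 3.80 CPM, with *Pecam1* and *Emcn* at 0 at d12. The part of these markers in the differences was not tested.

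**Figure D3:**
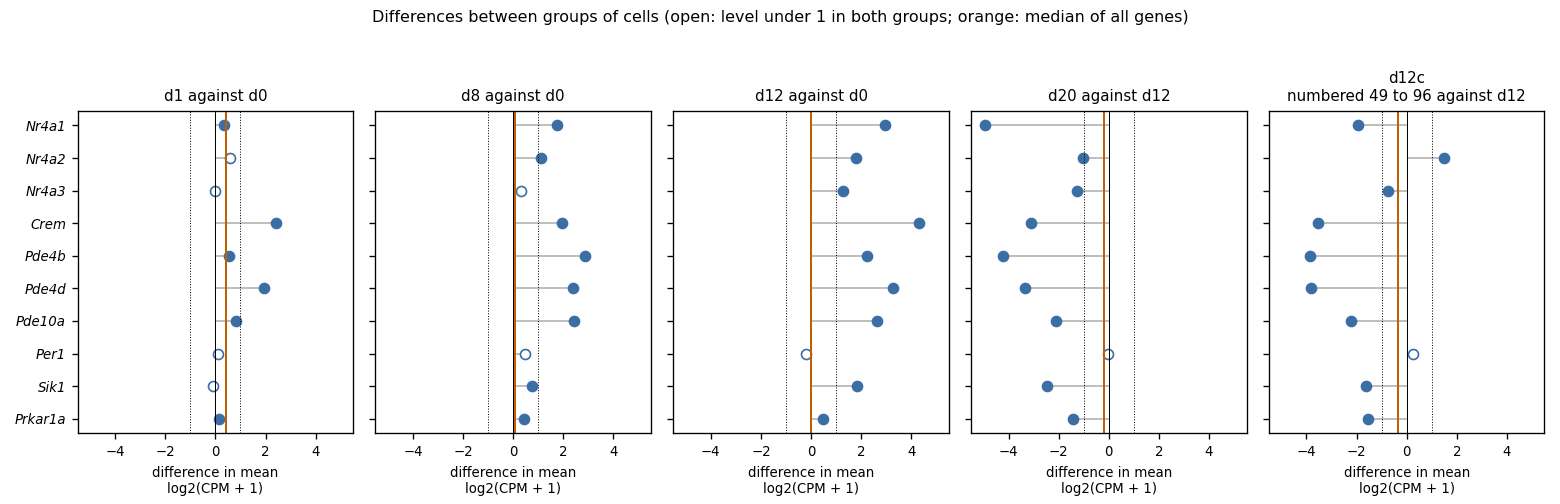
Difference in mean log2(CPM + 1) of each gene (rows) in 5 comparisons (panels). Open points mark genes with a mean under 1 in both groups, dotted lines mark differences of 1, and the orange line marks the median of all genes. *Crem* and *Pde4d* pass 1 at d1, 8 genes pass it at d12, and 9 genes fall below -1 from d12 to d20.

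Between d12 and d20 the median over cells of the summed fibroblast markers went from 10464 to 46.0 CPM. At d20, 9 of these 10 genes had a UMI in some cell, which describes detection only. Of the members, 9 of 9 expressed ones were lower at d20 than at d12 and 0 higher. Among 9749 genes 30.9% were lower and 20.5% higher, with a median of -0.20. *Nr4a1* fell by 4.93, *Pde4b* by 4.21, *Pde4d* by 3.34, *Crem* by 3.10, *Sik1* by 2.47, *Pde10a* by 2.12, *Prkar1a* by 1.42, *Nr4a3* by 1.28 and *Nr4a2* by 1.05. Relative to the median of all genes *Nr4a2* fell by 0.84, which leaves 8. *Pde4b*, *Sik1*, *Nr4a3*, *Nr4a2* and *Pde10a* reached the level at d12 alone, so that hardly another outcome was open to them. The 4 that reached it in both groups (*Nr4a1*, *Crem*, *Pde4d* and *Prkar1a*) were lower. For *Pde10a* the linear means were 9.03 CPM against 18.95 CPM, and the difference of the logs of mean CPM + 1 was -0.99. Median depth was 195480 UMIs at d20 and 768565 at d12. After thinning 7 members were lower by over 1, beside 25.3% of all genes. With at least 6000 detected genes per cell *Prkar1a* was at -0.87. The sources used here give 12 days of reprogramming medium in the labels and 12 to 20 days in the methods, so whether d20 cells were still exposed to Forskolin is not certain.

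The late d12c cells, numbered 49 to 96, allow a comparison within day 12. Relative to d12 cells, 7 members were lower and 1 was higher of 9 expressed, with 32.2% of 9648 genes lower and 17.3% higher and a median of -0.34. *Pde4b* fell by 3.85, *Pde4d* by 3.84, *Crem* by 3.54, *Pde10a* by 2.21, *Nr4a1* by 1.93, *Sik1* by 1.63 and *Prkar1a* by 1.54. *Nr4a3* was at -0.76. *Pde4b*, *Pde10a*, *Sik1* and *Nr4a3* reached the level at d12 alone, and of the 5 that reached it in both groups 4 were lower and 1 was higher. *Nr4a2* went the other way by 1.48, and by 1.502 when values under 20 CPM were set to 0, but by 0.85 with TMM factors on summed UMIs and 0.98 with all deposited cells. Since *Nr4a2* reached 20 CPM in 12 of 30 late d12c cells and in 12 of 67 d12 cells, this gene and *Nr4a1* did not share a direction here.

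The d12c cells numbered 1 to 24, in which fibroblast markers were high, differed from the late ones. *Crem* had a mean of 127 CPM there against 46.4 CPM in the late d12c cells and 241 CPM at d12. *Nr4a1* had 190 against 78.1 and 168 CPM, and *Pde4d* 42.0 against 6.46 and 53.3 CPM. *Pde4b* had 21.2 CPM against 2.70 and 62.5 CPM. *Prkar1a* had 503 CPM against 213 and 529 CPM. In mean log2(CPM + 1) all 5 of these genes lay nearer to d12 than to the late d12c cells. *Crem* was at 6.35 there, against 7.02 at d12 and 3.48 in the late cells. The order depended on the scale, since in mean CPM *Crem* and *Pde4b* lay nearer to the late cells. *Pde4b* reached 20 CPM in 3 of 21 cells numbered 1 to 24, 2 of 30 late cells and 33 of 67 d12 cells. Running number and marker content went together in these colony cells, and the influence of a library and that of cell identity cannot be told apart.

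**Figure D4:**
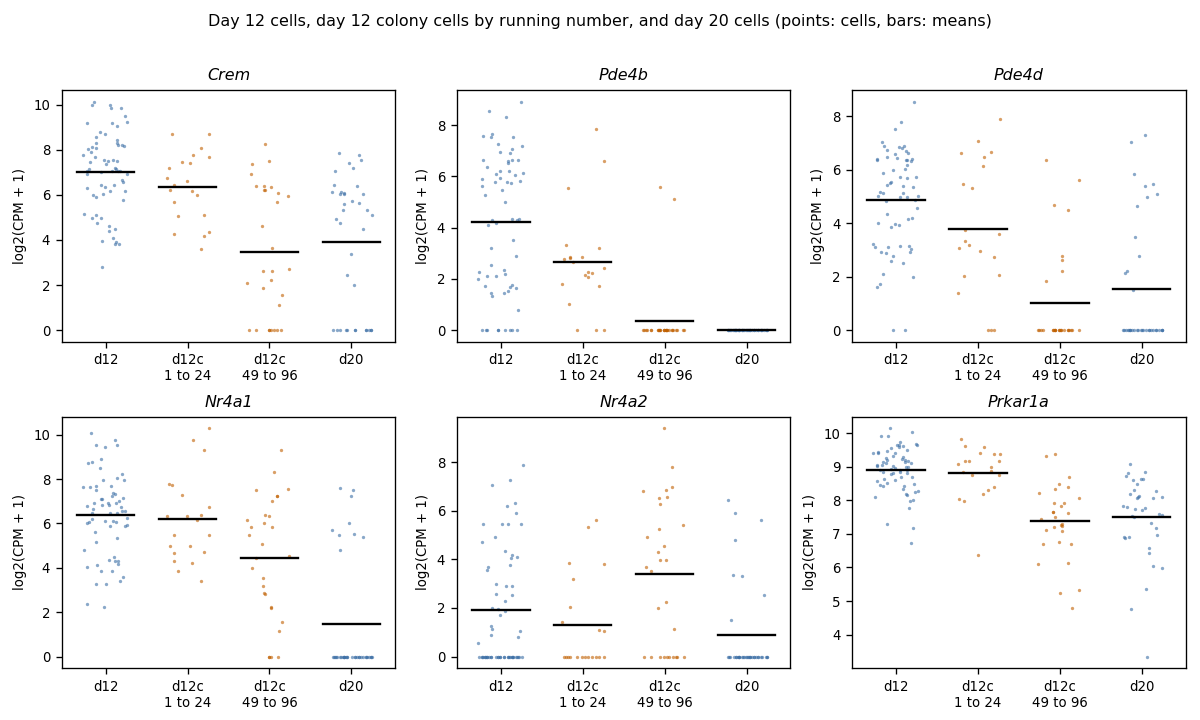
Levels of 6 genes (y axis, log2(CPM + 1)) in 67 d12 cells, 21 d12c cells numbered 1 to 24, 30 d12c cells numbered 49 to 96 and 38 d20 cells (points, cells; bars, means). *Crem*, *Pde4d* and *Prkar1a* of the first d12c cells lie near d12 and those of the late ones near d20, whereas *Nr4a2* is highest in the late d12c cells.

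The rest of the pathway was followed with 48 further genes for cyclases, PKA subunits and inhibitors, phosphodiesterases, Epac proteins, CREB and its coactivators, SIK kinases and A-kinase anchors. At d1, 28 had enough expression, of which 5 were higher and 2 lower than at d0, while 19.3% of all genes were higher and 4.57% lower. Their median over all 48 was 0.11, below the median of all genes (0.43). *Akap11*, a PKA anchor, was higher by 1.79 and *Sik3*, a relative of *Sik1*, by 1.70. The anchors *Akap12* and *Akap13* fell by 2.31 and by 1.22. At d8, 9 were higher and 5 lower of 29, beside 17.1% and 13.7% of all genes. At d12, 7 were higher and 5 lower of 29, beside 19.8% and 16.3% of all genes.

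A further phosphodiesterase and a cyclase rose most. *Pde7b*, specific for cAMP, went from a mean of 5.28 CPM at d0 to 101 CPM at d8 and 48.3 CPM at d12, with differences of 3.74 and 3.42. *Adcy1*, a neuronal adenylyl cyclase, went from 5.496 to 36.3 and 39.9 CPM, with differences of 3.05 and 2.83. *Pde7b* and *Adcy1* did not reach the level for comparison at d0, so their entry depended on the rise itself. *Prkar2b*, the type II-beta regulatory subunit of PKA, fell by 2.06 at d8 and by 2.02 at d12, and reached the level at d0 alone. *Akap13* fell by 1.65 at d8, and the anchor *Akap9* fell by 2.23 at d12.

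After d12, 12 pathway genes were lower and 3 higher of 26 at d20, beside 30.9% and 20.5% of all genes. In late d12c cells 12 were lower and 1 higher of 26, beside 32.2% and 17.3% of all genes. *Pde7b* had 0 UMIs at d20 against 2617 at d12, which is at least 136-fold lower against the same floor. *Adcy1* fell by 2.95 at d20. *Pde7b* and *Adcy1* reached the level for comparison at d12 alone, so that hardly another outcome was open to them. How many pathway genes entered in this way was not counted. *Pkig*, an inhibitor that binds the catalytic subunit of PKA, was higher by 2.42 at d20 (99.0 against 18.8 CPM) and by 2.25 in late d12c cells (84.2 CPM). The anchor *Akap1* was higher by 1.27 at d20. In late d12c cells *Pde7b* fell by 3.71 and *Pde8b* by 2.89, and both had reached the level at d12 alone. *Gnas*, the stimulatory G protein, had means of 491 CPM at d0, 430 CPM at d12 and 227 CPM at d20.

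Of 16 other CREB targets, 9 of 11 expressed ones were higher at d1 and 0 lower, 6 higher and 2 lower at d8, and 10 higher and 0 lower at d12. The shares of all genes higher were 19.3%, 17.1% and 19.8%. How many targets reached the level for comparison in 1 group only was not counted. The medians over all 16 were 1.19, 0.21 and 2.70, beside 0.43, 0.08 and -0.01 over all genes. *Fos*, which joins AP-1 and also stands among the immediate early genes above, was higher by 3.48 at d1 (206 against 57.9 CPM) and by 3.70 at d8. *Areg*, the EGF receptor ligand amphiregulin, went from 4.06 CPM at d0 to 145 CPM at d1, down to 0.942 CPM at d8, where it was lower than at d0 by 1.08, and up to 959 CPM at d12. The differences of *Areg* were 3.37 at d1 and 6.61 at d12. *Gem*, a small GTPase, was higher by 4.67 at d12. *Bdnf*, a neurotrophin, fell by 1.33 at d8. *Sst*, with mostly low values in the d8 cells as described above, is 1 of the 6 higher at d8, so that 5 are left without it.

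From d12 to d20, 11 of 12 expressed targets were lower and 0 higher, with a median of -3.75 over the list and -0.20 over all genes, of which 30.9% were lower. In late d12c cells 11 were lower and 1 higher, beside 32.2% of all genes lower. The differences of *Areg* were -7.65 and -7.46. *Areg* and *Ptgs2* reached the level for comparison at d12 alone, so that hardly another outcome was open to them. How many targets entered in this way was not counted, and the counts of this list are a description. *Ptgs2*, the inducible cyclooxygenase, had a mean of 256 CPM and UMIs in all 67 d12 cells, and no UMI at d20, at least 746-fold lower against the floor. In late d12c cells it fell by 5.61. The exception was *Ppargc1a*, a coactivator of energy metabolism, higher by 1.36 in late d12c cells (25.04 against 5.67 CPM). It reached the level in the late d12c cells alone.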

How the data were processed

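Single cells were picked by hand, and the cDNA was amplified and sequenced on an Illumina HiSeq X-Ten. Per the labels, the authors assigned reads to cells by barcode, mapped the trimmed reads to the mouse transcriptome (mm9) and collapsed copies of a UMI. The deposited values are whole-number counts of UMIs per gene and cell, not normalized. The aligner and any filter on cells are not given in the sources used here. The table held 23293 entries, of which 92 were ERCC spike-in RNAs (5.43% of the counts of kept cells). A further 4 entries that shared a name were left out.

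The series lists 10 samples, but cell names give a time point and a running number only. All cells were treated as 1 sample, and no test was made. A cell needed 4000 detected genes to enter (670 of 808 did). Counts were scaled to CPM without ERCC entries, and differences were taken between means of log2(CPM + 1). A gene was compared where its mean reached 1 in one of the groups, and a difference over 1 was counted. Shares of cells have exact Clopper-Pearson intervals and summed UMIs exact Poisson intervals at 95%, both for counting error only. A count of 0 was set to a floor of 3 counts per group for folds. Doublets were not called, since cells were picked singly.

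The 10 genes, the lists of other genes and the markers were chosen with earlier results of these data known. Named list genes are, per comparison and list, the 2 largest rises and the 2 largest falls past 1, and genes of similar course are the 3 with the highest Pearson r over the 12 groups. *Gnas* and *Sst*, as a measure of low-level UMIs, were named after their values were seen, and so was the level of 20 CPM. Alternatives covered the filter on cells and genes, the pseudocount, averaging, scaling, thinning, single cells and running numbers. Gene positions follow GENCODE M1 (NCBIM37, mm9), and promoter sequences from RefSeq on GRCm38.p6. Computation used Python 3.11.15, numpy 2.4.6, pandas 2.3.3 and scipy 1.17.1. Scaling factors on summed counts came from edgeR 4.0.16 (TMM) and DESeq2 1.42.0 (median of ratios) under R 4.3.3. The comparison was tested on simulated data.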

Additional observations from a re-analysis of the deposited data

How the results depend on the processing

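No direction of a counted member reversed under any alternative run. With a pseudocount of 10, the members higher were 1 at d1, 3 at d8 and 5 at d12 against d0. At this pseudocount every gene passes the level for comparison, and of all genes 1.36%, 2.38% and 3.19% were higher. In late d12c cells against d12, 0 members were higher, beside 3.70% of all genes. At d20 against d12, 5 were lower, beside 5.03% of all genes. With values under 20 CPM set to 0, an alternative chosen after seeing the data, 5 were higher at d12, beside 20.3% of all genes. With the log2 of the mean CPM, 1 member was lower at d12 than at d0, *Per1* at -1.45, beside 19.3% of all genes. The single member higher in late d12c cells, *Nr4a2*, was lost with all deposited cells, with TMM factors and with median-of-ratios factors, which gave 0 each. The other 106 of 116 recomputed member counts stayed within 1.5 times the reported ones. *Nr4a2* at d1 was at 2.21 on summed UMIs with TMM factors, against 0.60 as reported. For the changes that only a higher pseudocount makes, low CPM values weigh less by construction, and for the rest the cause was not tested.

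Cells numbered 1 to 48 gave no value for late d12c cells, and those above 48 none for d1. No paired analysis was possible because cell names do not show batches, and no replicate could be left out. With 1 sample, spread between cultures is unknown, and shallow d20 cells limit what a count of 0 shows.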

Other observations

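The genes whose mean log2(CPM + 1) ran most like that of each member over the 12 groups of cells were looked up among 11303 expressed genes, for members with a group mean of at least 10 CPM. These are descriptions over 12 points that share cells of the same course. *Nr4a1* was most like *Csf1r* (Pearson r = 0.92), the receptor of macrophage colony-stimulating factor, then *Pla2g2e* (0.90) and *Krt14* (0.90). *Nr4a2* ran with *Plbd1* (0.90), *Mettl27* (0.88) and *Rnase1* (0.87). *Nr4a3* ran with *Gdpd2* (0.95), *Pfkfb3* (0.94) and *Krt23* (0.92). *Sik1* shared *Pfkfb3* (0.94), an enzyme that speeds glycolysis, with *Nr4a3*, and stood nearest to *Nfil3* (0.94) and *Cirbp* (0.94). *Nfil3* encodes a transcription factor that is on the list of other CREB targets.

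*Crem* was most like *Rest* (0.90), a repressor of neuronal genes, *Sf1* (0.88) and *Nfe2l2* (0.87). *Pde4b* ran with *Steap2* (0.97), *Serpinb9* (0.94) and *Medag* (0.94), and *Pde4d* with *Baalc* (0.97), *Mmd* (0.96) and *Fam84a* (0.96). *Pde10a* stood nearest to *Fam161a* (0.94), *Cyb5a* (0.94) and *Serpini1* (0.91). *Prkar1a* ran with *Tmco3* (0.96), *Tm2d2* (0.96) and *Palld* (0.96).

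Without the filter on cells, 1 value stood out: the mean of *Nr4a1* in d12c was 1242 CPM over all deposited cells and 124 CPM over the kept ones. Other groups moved by running number too. At d0 *Nr4a1* had a mean of 70.1 CPM in cells numbered 1 to 48 and of 32.6 CPM above 48, and at d6 *Crem* had 25.5 and 66.2 CPM.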
